A study of Mus musculus with 6 samples.

Results

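The slow, cardiac and embryonic muscle genes are 10 genes of striated muscle: the myosin heavy chains Myh7, Myh3 and Myh8, the slow troponins Tnni1, Tnnt1 and Tnnc1, the myosin light chains Myl2 and Myl3, the Z-disc protein gene Csrp3 and the myoglobin gene Mb. They were measured in lumbar spinal cord, a tissue in which skeletal muscle transcripts are foreign, to read the fibre type of any muscle signal there. A probe set was taken as a member where the platform annotation gave it 1 gene symbol and that symbol was on the list. This found 13 of 22690 probe sets on array type A, with all 10 genes measured of 12393 with a symbol, and 0 of 22575 on array type B. A further 2 probe sets on A list a member together with another gene and were not used. The study hybridised 3 RNA pools, each from 3 cords (segments L3 to L5, postnatal day 27), once to each of the 2 array types. Pool 1 (RNA 450) and pool 2 (RNA 500) carry the label Egr3-deficient, and RNA 499 is wild type. No allele, strain or sex is stated. Acclimatization is noted for pool 2 and for wild type but not for pool 1. The comparison is thus of 2 pools against 1, and the spread of the wild-type group was not measured. The p-values rest on the spread between the 2 Egr3-deficient pools and on a spread borrowed from all tested probe sets.

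Skeletal muscle is built from fibres that differ in their isoforms of the same sarcomere proteins. Slow, oxidative fibres use the heavy chain Myh7, the regulatory and essential light chains Myl2 and Myl3 and the slow troponins. These light chains and Tnnc1 are also the isoforms of the adult heart ventricle. Slow fibres store oxygen on myoglobin. Fast fibres use Myh2, Myh1 or Myh4 with Mylpf, Myl1 and the fast troponins Tnni2, Tnnt3 and Tnnc2. Myh3 (embryonic) and Myh8 (perinatal) are expressed in developing and regenerating muscle and are largely replaced after birth. Intrafusal fibres of the muscle spindle, the stretch receptor that depends on Egr3 for its development, keep embryonic, perinatal and slow heavy chains in the adult. In the RefSeq gene table the genes from Myh3 to Myh8 stand in the order Myh3, Myh2, Myh1, Myh4, Myh8, so the embryonic and perinatal genes lie on either side of these fast ones.

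The 250 bases before the transcription start are shown for the 4 members with a probe set at least 2-fold above wild type in both pools (Mb, Myl2, Tnnt1, Tnnc1) and for Myh8, which was not. Sequences are from RefSeq, build GRCm38.p6, 5′ to 3′ on the strand of the gene, and capitals mark every motif match. All 10 members had an entry, 16 windows in all. For Mb and Myl2, which have several starts, a window with a match was chosen.
Mb, chr15:77022788-77023037, minus strand: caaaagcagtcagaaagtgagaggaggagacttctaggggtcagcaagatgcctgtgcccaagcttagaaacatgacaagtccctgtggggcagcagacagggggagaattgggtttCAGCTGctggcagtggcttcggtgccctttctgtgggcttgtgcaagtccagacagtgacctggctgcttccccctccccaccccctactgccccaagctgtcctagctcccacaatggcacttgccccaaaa
Myl2, chr5:122092939-122093188, plus strand: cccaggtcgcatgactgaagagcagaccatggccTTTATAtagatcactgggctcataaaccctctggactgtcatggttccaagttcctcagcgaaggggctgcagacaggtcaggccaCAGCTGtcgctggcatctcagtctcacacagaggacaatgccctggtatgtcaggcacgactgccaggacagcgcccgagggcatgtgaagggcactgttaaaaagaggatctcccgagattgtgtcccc
Tnnt1, chr7:4515976-4516225, minus strand: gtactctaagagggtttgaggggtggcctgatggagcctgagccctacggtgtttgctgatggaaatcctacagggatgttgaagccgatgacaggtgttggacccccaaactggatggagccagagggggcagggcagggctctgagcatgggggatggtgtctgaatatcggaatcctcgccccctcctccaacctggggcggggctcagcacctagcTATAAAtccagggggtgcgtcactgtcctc
Tnnc1, chr14:31208062-31208311, plus strand: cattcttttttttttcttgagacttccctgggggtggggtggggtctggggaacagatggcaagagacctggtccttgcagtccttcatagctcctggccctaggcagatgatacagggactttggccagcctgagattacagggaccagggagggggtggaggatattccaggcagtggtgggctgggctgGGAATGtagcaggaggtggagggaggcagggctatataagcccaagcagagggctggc
Myh8, chr11:67276874-67277123, plus strand: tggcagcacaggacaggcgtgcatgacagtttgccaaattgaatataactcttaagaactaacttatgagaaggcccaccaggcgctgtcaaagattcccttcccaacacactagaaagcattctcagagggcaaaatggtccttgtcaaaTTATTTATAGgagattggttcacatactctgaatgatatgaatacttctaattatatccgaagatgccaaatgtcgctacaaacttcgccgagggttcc

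The motifs, searched on both strands, were the TATA box (TATAAA), the E-box (CAGCTG) bound by myogenic factors, the MCAT element (CATTCC), an EGR-type site (GCGNGGGCG) and, by name, the MEF2 site and the CArG box. The Tnnt1 window holds a TATA box 30 to 25 bases before the start, and that of Myh3, not shown, holds one 29 to 24 bases before it. The Mb window has an E-box 133 to 128 bases before the start. The Myl2 window has one at 130 to 125 bases and a TATA match, on the other strand, at 216 to 211 bases. Tnnc1 has an MCAT element at 58 to 53 bases and Myh8 a MEF2 match at 99 to 90 bases that overlaps a TATA match. An E-box was found for 3 of 10 members, where 14.72% of 27025 genes with a window had one, and for 7 of 13 fast-fibre genes. A TATA box was found for 4 members (14.33% of all genes), an MCAT element for 3 (14.36%), a MEF2 site for 1 (3.42%) and a CArG box for 1 (1.62%). The EGR-type letters were in 0 of 16 member windows, against 4.70% of all 32851 windows. Several windows of 1 gene overlap, and a match is only a run of letters in this stretch.

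The series as a whole sets 4 facts beside these genes. In the order pool 1, pool 2, wild type, which is kept below, Egr3 read 24.9, 52.7 and 40.6 on A. On B its readings were 210, 107 and 75.3. The place of its probes relative to the deleted part is unknown here, so it checks nothing, and directions rest on the labels. Spinal cord genes were read in every pool: Snap25, a synaptic protein gene, read 2172, 3140 and 4838, and the motor neuron genes were unequal, with Slc18a3, the vesicular acetylcholine transporter gene, at 145, 141 and 110 and the 2 probe sets of the transcription factor gene Isl1 lower in both Egr3-deficient pools (log2 differences -1.09 and -1.25, no test). The choline transporter gene Slc5a7 (-0.69, no test) was also lower in both on A. So was the astrocyte water channel gene Aqp4 (-1.79 and -1.74, limma adjusted p = 0.161 and 0.158), which passed on B (-1.84, adjusted p = 0.0115). A probe set of the astrocyte gene Slc1a2 was also called lower on B (-1.18, limma adjusted p = 0.0403), with readings of 3513, 7489 and 7384. The other Slc1a2 probe sets on B went both ways (-0.26, -0.63 and 0.52), and that on A differed by 0.05. In all, 82 of 13507 tested probe sets were called lower on B. Another astrocyte gene, Gfap, was higher in both on A (0.28 and 0.72, limma adjusted p = 0.446 and 0.213). The motor neuron genes Mnx1 on A (0.47, no test) and Chat on B (0.74, limma adjusted p = 0.591) were higher too. Among the 31 spinal cord probe sets of A, 13 exceeded wild type in each Egr3-deficient pool and 14 fell short of it in each. Liver genes separated the pools, with a summed intensity over 15 probe sets of 494, 13114 and 155. For the 18S rRNA control probes on A, 3' signal divided by 5' signal gave 2.27, 1.08 and 0.0493, in the same order of pools as several members below. The 18S 5' signal was 43.7, 136 and 3068. The mRNA controls did not follow that order, with ratios of 0.858, 0.975 and 0.734 for Gapdh and 1.37, 1.48 and 1.36 for beta-actin. The part of RNA quality in the member values was not tested. In RNA from cord segments, fewer cells of a type and less RNA per cell cannot be told apart.

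None of the 7 member probe sets that entered the limma test passed it. Probe sets of Mb, Myl2 and Tnnc1 among them, and that of Tnnt1, which the filter left out of the test, were at least 2-fold above wild type in both pools. Differences are means of the 2 Egr3-deficient pools minus wild type on the quantile-normalized log2(intensity + 16) scale, which understates changes of dim genes and on which 2-fold counts are also taken, and the test used an adjusted p of 0.05 over 13576 probe sets. Of the 13 probe sets, 7 were above wild type in both pools, 3 below in both, and 4 at least 2-fold above in both. Over all 22626 non-control probe sets of A, 42.7% were above in both pools and 1.14% at least 2-fold above. The limma test called 0.0663% of the tested probe sets higher. At an unadjusted p under 0.05, 4 of the 7 members were higher, where 7.93% of all tested probe sets were. The filter kept probe sets whose mean reached an intensity of about 36.7, and 6 of the 7 kept members read below that in wild type. They entered through the Egr3-deficient pools, the third Myl3 probe set and Csrp3 through pool 1 alone, so their count shows nothing by itself. Adjusted p was 0.161 at its lowest among the members.

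**Figure D1:**
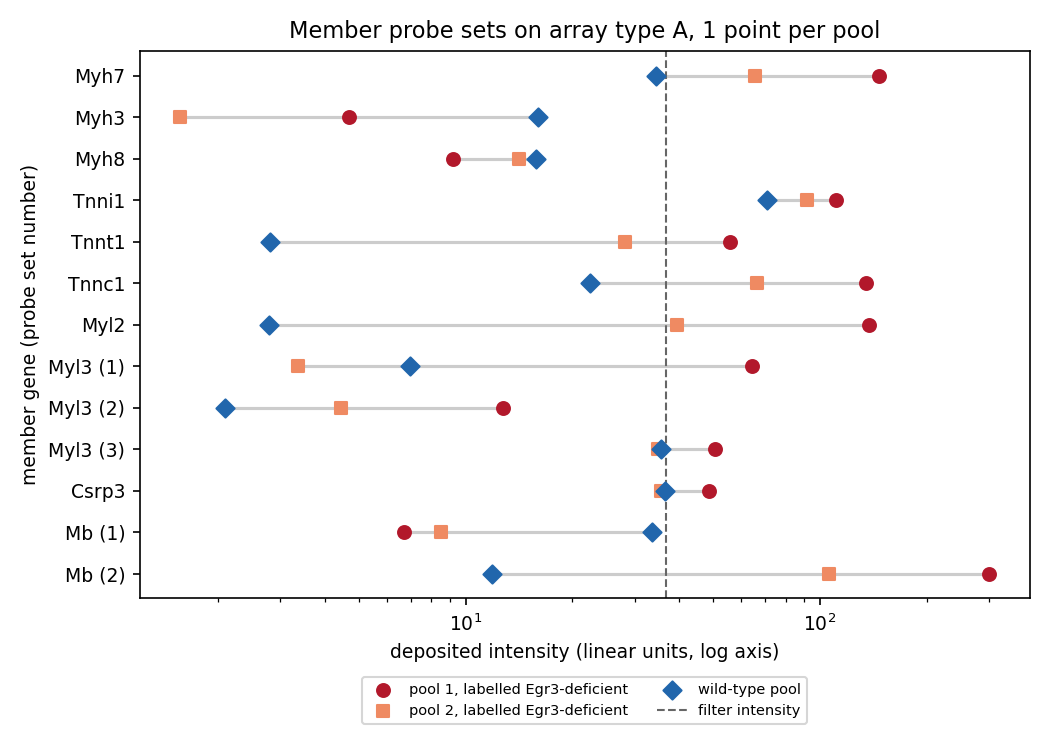
Deposited intensity (linear units on a log axis) of each of the 13 member probe sets in pool 1, pool 2 and the wild-type pool on array type A; the dashed line is the filter intensity of 36.7, and numbers in brackets tell probe sets of 1 gene apart. Mb (second probe set), Myl2, Tnnt1, Tnnc1 and Myh7 read highest in pool 1, next in pool 2 and lowest in wild type, while Myh3 and Myh8 read highest in wild type.

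The slow troponins form the calcium switch of the thin filament. Tnnc1, the calcium-binding subunit of slow and cardiac muscle, read 135, 66.2 and 22.5. Both Egr3-deficient pools were above wild type, and pool 1 was about as far above pool 2 as pool 2 was above wild type. The log2 difference was 1.60 (SE 0.45, limma adjusted p = 0.162). Tnnt1, which ties the slow complex to tropomyosin, read 55.8, 28.2 and 2.80. Its wild-type reading lay at percentile 6.88 of that array, the gene stayed below the filter, and its difference of 1.61 has no test. Tnni1, the inhibitory subunit of slow fibres, read 111, 91.8 and 70.8. It was the only member above the filter intensity in wild type and differed by 0.53 (SE 0.34, adjusted p = 0.389).

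The slow and ventricular light chains did not behave alike. Myl2, the regulatory light chain, read 138, 39.6 and 2.79, with the last, the wild-type reading, at percentile 6.85 of the array. Both Egr3-deficient pools were above the single wild-type reading, as in 42.7% of all non-control probe sets. The log2 difference was 2.30 (SE 0.59, adjusted p = 0.161), with 3.09 in pool 1 and 1.51 in pool 2. Myl3, the essential light chain, has 3 probe sets, and in pool 2 they lay -0.25, 0.14 and -0.0046 from wild type on the log2 scale. The first read 64.2, 3.36 and 6.95, so that only pool 1 was high. The second read 12.8, 4.44 and 2.09, all below the filter intensity. The third, the only one tested, read 50.6, 34.97 and 35.7 and differed by 0.27 (SE 0.37, adjusted p = 0.687). Its difference in pool 1 was 0.55.

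Among the heavy chains, the slow isoform was above wild type and the embryonic and perinatal ones were not. Myh7, the motor of slow fibres, read 147, 65.7 and 34.5. Pool 1 stood 1.81 above wild type on the log2 scale and pool 2 stood 0.72 above, and the mean difference was 1.27 (SE 0.47, adjusted p = 0.205). Myh3, the embryonic chain, read 4.69, 1.56 and 16.04, and Myh8, the perinatal chain, read 9.20, 14.1 and 15.7. Both were below the filter in every pool, so the readings bound rather than measure these genes, and neither was above wild type in an Egr3-deficient pool (log2 differences -0.69 and -0.15, no test).

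Mb, the oxygen store of oxidative fibres and heart, gave the highest member reading and also the plainest disagreement between probe sets. Its second probe set read 300.5, 106 and 11.9. By the smaller of the 2 ratios to wild type it ranked 19 of 22626, Myl2 ranked 49, Tnnt1 126 and Tnnc1 175. The log2 difference was 2.85 (SE 0.54, adjusted p = 0.161), with 3.54 in pool 1 and 2.16 in pool 2. The first Mb probe set read 6.68 and 8.50 against 33.5, with a mean log2 difference of -0.99, and all 3 readings were below the filter intensity. The mean of both probe sets gave Mb a log2 difference of 0.93. Csrp3, a muscle LIM protein of the Z-disc found in slow fibres and heart, read 48.5, 35.6 and 36.5. Only pool 1 was above wild type (log2 difference 0.23, SE 0.36, adjusted p = 0.726).

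The members were unequal between the 2 Egr3-deficient pools. Pool 1 was above pool 2 in 12 of 13 member probe sets, against 53.3% of all probe sets, with Myh8 the exception, and the median of pool 1 minus pool 2 was 0.63 on the log2 scale against 0.027 over all. In 4 member probe sets (Myh7, Myl2, the first of Myl3 and the second of Mb) pool 1 was at least 2-fold above pool 2, as in 1.78% of all. At least 2-fold above wild type were 6 member probe sets in pool 1 (4.80% of all) and 4 in pool 2 (3.05% of all). With 1 pool on each side this contrast has no test. Without quantile normalization and on shared probe set scaling the count was 11 of 13, with a median of 0.49. The summed intensity of the members was 1084, 500.1 and 292 in pool 1, pool 2 and wild type.

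**Figure D2:**
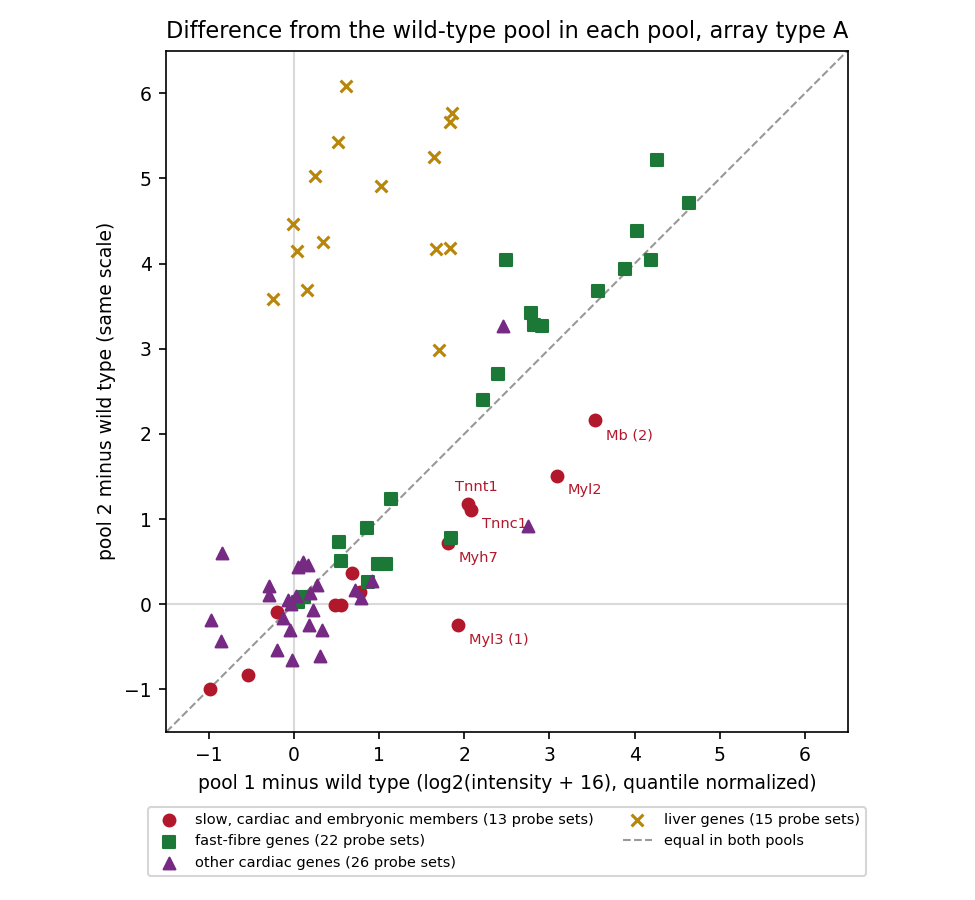
Difference from the wild-type pool in pool 1 (horizontal) and pool 2 (vertical), on the quantile-normalized log2(intensity + 16) scale, for member, fast-fibre, other cardiac and liver probe sets of array type A; the dashed line marks equal differences. Named members lie below the line (Mb second probe set at 3.54 and 2.16), fast-fibre genes lie on both sides of it, from Myh4 (pool 1 minus pool 2 of -1.55) to Pgam2 (1.07), and liver genes lie above it. Both axes share the wild-type pool.

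Fast-fibre genes, the counterpart in the question of fibre type, had larger differences and no such excess in pool 1. On A, all 22 probe sets of 17 measured fast-fibre genes exceeded wild type in pool 1 and in pool 2. Of these, 13 were at least 2-fold above and 7 passed the limma test. The 7 that passed all read below the filter intensity in wild type (at most 15.1, for Myl1). Like the members, they entered the test through the Egr3-deficient pools, so their count shows nothing by itself. The list was also chosen with earlier results known. The median difference was 2.43 against 0.53 for the 13 member probe sets and 0.054 over all. Pool 1 was above pool 2 in 8 of the 22, with a median of -0.089, which turned to 0.052 under median centring. The difference between the lists was not tested. The fast counterparts of the members illustrate it. Mylpf, the fast regulatory light chain beside Myl2, read 594 and 608 against 8.41, and pool 1 minus pool 2 was -0.077, where that of Myl2 was 1.57. Tnnc2, beside Tnnc1, read 444 and 561 against 12.6, with a pool difference of -0.35 where that of Tnnc1 was 0.97. Tnni2, beside Tnni1, had a pool difference of 0.15 on its brightest probe set, where Tnni1 had 0.32. Tnnt3, beside Tnnt1, was at 209, 342 and 18.9, with -0.65 where Tnnt1 had 0.86, and was picked with its values known. On array type B 3 of 6 fast-fibre probe sets were at least 2-fold above wild type in both pools (4.47% of all 22511) and 2 passed (1.02% of 13507 higher): Mybpc2 and 1 probe set of Myom2. That Myom2 probe set read 6.06 in wild type, below the B filter intensity of 55.9, so it entered through the Egr3-deficient pools. The other Myom2 probe sets on B differed by 0.57 (limma adjusted p = 0.766) and -0.57 (no test), and that on A by 0.1 (no test).

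The adult myosin heavy chains, picked out after their values were seen, differed in sign by their pool difference. Pool 1 minus pool 2 was 1.09 for Myh7, 0.61 for Myh2 (61.5, 40.4 and 24.9 in pool 1, pool 2 and wild type), -0.11 and -0.050 for the 2 brightest probe sets of Myh1 (291, 316 and 10.6, and 250, 263 and 2.10) and -1.55 for Myh4 (77.7, 276 and 1.73). A further, dim Myh1 probe set (18.5, 9.17 and 4.39) had a pool difference of 0.62, level with Myh2, so the Myh1 probe sets disagree. A separate Myh4 probe set on array type B had a pool difference of -1.37 (53.4, 180 and 60.5). Each value rests on 1 reading a pool, so no pair of these genes is shown to differ. Under median centring the 2 brighter Myh1 values were 0.041 and 0.086.

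**Figure D3:**
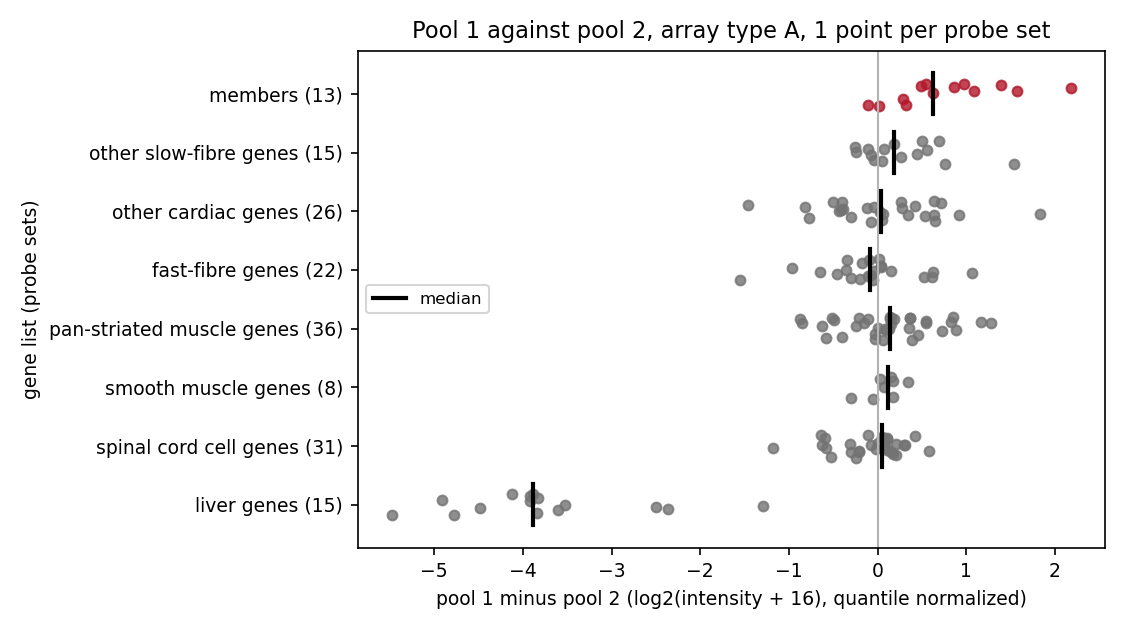
Pool 1 minus pool 2 on the quantile-normalized log2(intensity + 16) scale for each probe set of 8 gene lists on array type A, with the median as a black bar; list names give the number of probe sets. The member median is 0.63, the fast-fibre median is -0.089 and the liver median is -3.89.

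No gene of the lists of other slow-fibre and cardiac genes passed the limma test on either array type. At the brightest probe set on A, 5 of 8 other measured slow-fibre genes exceeded wild type in both pools, 2 were below, with a median of 0.49. None was 2-fold above on the log2(intensity + 16) scale, although dim genes such as Smpx, Casq2 and Lmod2 were by their plain readings. Smpx, a small muscle protein gene, read 27.5 and 30.4 against 10.4 (log2 difference 0.83, no test), Casq2, the calsequestrin of slow fibres and heart, 24.7 and 22.2 against 8.79, and Myoz2, a slow-fibre Z-disc gene, 40.5 and 44.97 against 20.8. Atp2a2, the slow-fibre calcium pump that is also broadly expressed, read 1457 and 1407 against 1688. On B, 1 of 3 probe sets of Mybpc1, the slow myosin-binding protein gene, was at 266, 265 and 106 (1.33 on the log2 scale, limma adjusted p = 0.123), and the other two were not above wild type in both pools. Of 17 cardiac genes, 9 were above in both pools, 2 below, 1 at least 2-fold above and none passed, with a median of 0.061. The 2-fold one, Actc1, an actin of heart and of immature muscle, read 143 and 277 against 15.2 (2.86, limma adjusted p = 0.112). Ckmt2, also on this list, read 97.9, 19.1 and 1.82. By these plain readings it was more than 2-fold above in both pools, but its log2 differences were 2.75 and 0.92 (no test). Some defining heart genes were dim in every pool: the cardiac heavy chain Myh6 read at most 14.1, the atrial light chain Myl7 at most 9.23 and the cardiac troponin Tnni3 at most 10.9. Others were not dim throughout but were no higher in the Egr3-deficient pools together: the natriuretic peptide gene Nppb read 48.1, 22.2 and 43.1, and cardiac troponin Tnnt2 on B read 102, 37.8 and 146. Mybpc3, the cardiac myosin-binding protein gene, went the other way at 57.6, 40.6 and 34.9 (0.44, limma adjusted p = 0.505). All 15 probe sets of the 12 myogenic and immature muscle genes were below the filter, with 4 genes above and 4 below wild type in both pools and a median of -0.042. Myod1, a myogenic regulator, read 14.4 and 25.5 against 2.68, and Myog 5.78 and 2.75 against 3.22.

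Genes shared by all striated muscle had a median difference of 0.83 over genes, against 0.90 for the 10 members and 2.55 for the fast-fibre genes, and smooth muscle genes one of 0.19. Of 21 pan-striated genes on A, 16 exceeded wild type in each Egr3-deficient pool and 6 were at least 2-fold above at their brightest probe set. Acta1, skeletal actin, and Ckm, muscle creatine kinase, passed, and pool 1 was above pool 2 in 13 of the 21. With the 7 fast-fibre probe sets these 2 made up the 9 called on A. Actn2, a sarcomeric actinin of heart and skeletal muscle, read 91.3 and 48.4 against 12.2. Of 6 smooth muscle genes, 4 were above in both pools and none 2-fold, and Acta2 read 378 and 292 against 226. The summed intensity of the 8 smooth muscle probe sets was 559, 492 and 379, and that of the 31 spinal cord probe sets 63340, 81271 and 91165. The part of other tissues in the member values was not tested.

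Patterns like those of the members were looked for among probe sets of other genes that passed the filter and have 1 symbol; the members themselves, some of which lie nearer to each other, were left out. Likeness was the distance between the pairs of log2 differences from wild type (pool 1, pool 2), over these 3 arrays. Of these, the 3 closest to Myl2 and to Mb were all probe sets of Hspa1b, an inducible chaperone gene, the nearest at distances of 0.0848 and 0.709 (426, 137 and 37.1). Closest to Tnnc1 in the same search were Lyz1 (distance 0.0408; 281, 134 and 59.3), Actn2 (0.090) and Zbtb7b (0.174; 103, 46.1 and 11.1). The distances share the wild-type pool, and 3 arrays give many probe sets a like pattern.

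**Figure D4:**
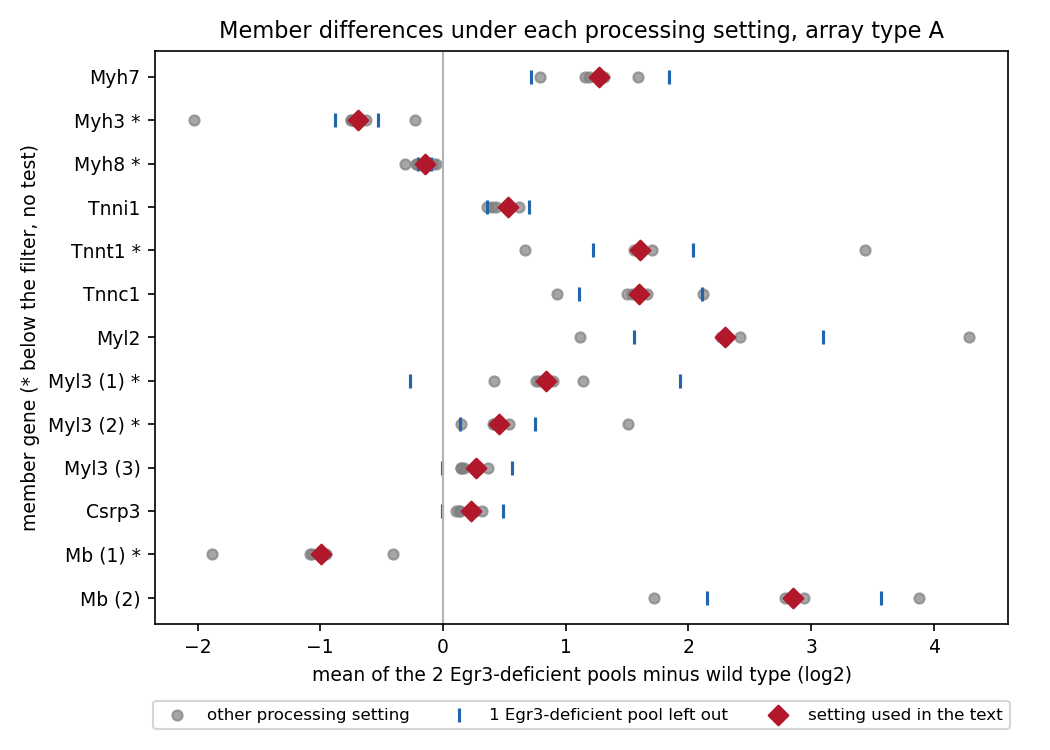
Mean of the 2 Egr3-deficient pools minus wild type (log2) for each member probe set under the setting used in the text (diamond), under other processing settings (grey) and with 1 Egr3-deficient pool left out (blue bars); stars mark probe sets below the filter. The second Mb probe set runs from 1.72 to 3.88 and Myl2 from 1.12 to 4.29, while the third Myl3 probe set and Csrp3 reach 0 without pool 1. The first Myl3 probe set falls to -0.27 without pool 1.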

How the data were processed

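Each deposited value is a linear intensity. Its 2% trimmed mean lay near 150.06 on the A arrays and 150.02 on the B arrays. The summarising program is unstated, and depth has no meaning for arrays, so their number limits the precision. From these, log2(intensity + 16) was quantile normalized within each array type after leaving out 64 control probe sets, kept at or above the 40th percentile of the mean, and tested across the whole table with limma 3.58.1 in R 4.3.3 (lmFit, eBayes with trend, Benjamini-Hochberg). Pools 1 and 2 and the limma prior set the spread (1 residual degree of freedom), so wild type is taken to share it. Counts above wild type used all non-control probe sets. Symbols were updated through the gene identifier (20351 probe sets on A). Named genes were all members, up to 4 genes of each other list (past the threshold first, then the largest smaller ratio) with defining markers, and the 3 closest patterns. Members and lists were chosen with earlier results of these data known. The fit was tested on simulated data. Alternatives covered normalization, pseudocount, filter, prior, adjustment, replicates and several probe sets of a gene.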

Additional observations from a re-analysis of the deposited data

How the results depend on the processing

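No member passed under 9 of the 10 other settings of the limma test. Median centring was the exception, with 4 called (Mb second probe set, Myl2, Tnnc1, Myh7; adjusted p from 5.67e-11 to 0.019) beside 227 higher and 597 lower calls over all probe sets. There the prior took over the spread entirely, so a probe set's own difference between pools no longer counted. Over all settings with a test the adjusted p of the second Mb probe set ran from 5.67e-11 to 0.336. The number at least 2-fold higher in both pools fell from 4 to 1 at a pseudocount of 64, which shrinks every ratio. It was 4 without pool 1 and 6 without pool 2, and the number above wild type was 7 and 10. Leaving out each Egr3-deficient pool in turn, the third Myl3 probe set differed by -0.0044 to 0.56 and Csrp3 by -0.011 to 0.49, the lower value being that without pool 1. Of the single-gene values, 133 kept their direction and call or moved by less than the spread, 14 moved by more, 4 gained a call and 2 reversed, which are these Myl3 and Csrp3 values without pool 1. Reversal was counted only for tested probe sets. The untested first Myl3 probe set also changed sign, from 0.84 to -0.27 without pool 1, and stands among the 133. The first Mb probe set stayed negative, from -1.88 to -0.41. Probe sets that left the filter at the 60th percentile have no value there, and array type B has no member to test. No paired analysis was possible because the labels tie no Egr3-deficient pool to a wild-type pool.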

Other observations

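Outside the member list, 2 genes of oxidative or slow muscle read high in pool 1 only or mainly there, picked out after their values were seen and with no test. Ckmt2, the mitochondrial creatine kinase of striated muscle, counted above among the cardiac genes, read 97.9, 19.1 and 1.82 (pool 1, pool 2, wild type). Its pool difference was 1.83 on the log2 scale. Ankrd2, a stretch-responsive gene of slow fibres, read 35.1, 3.50 and 6.95, a pool difference of 1.54. Both stayed below the filter. Actc1 went the other way, with a pool difference of -0.82. The 15 probe sets of the other slow-fibre list on A, Ankrd2 among them, had a median pool difference of only 0.19. A like excess in pool 1 was seen outside slow-fibre genes. The pan-striated gene Des had 1.28 on 1 probe set and 0.15 on another, and the fast-fibre gene Pgam2 had 1.07.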
